A study of Mus musculus with 9 samples.

Results

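Cell division turns on a small set of genes, and 38 of them, with roles in G1 control, DNA replication and mitosis, are described here in mouse liver. A gene was taken from Affymetrix probe sets annotated to its symbol alone, and a gene with several probe sets was represented by the one with the highest mean signal over the 9 arrays. By this rule 37 of the 38 genes were measured, of 18193 genes with a probe set of their own, and the mitotic cyclin gene Ccnb1 was not analysed here. The 37 were 8 genes of G1 control, 15 of replication and 14 of mitosis.

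All mice were female Crlj:CD1(ICR), an outbred stock. They were bought at 9 weeks of age, kept in quarantine for 1 week and fed a powdered diet for 2 weeks. The diet held 5000 ppm of permethrin, 5000 ppm of clofibrate, or neither in controls. Each group had 3 mice, labelled as biological replicates, and the liver RNA of each mouse was hybridised to 1 array. Permethrin is a pyrethroid insecticide, and clofibrate is a lipid-lowering fibrate that activates the nuclear receptor PPAR alpha. Signals are MAS5 intensities on a linear scale, and every array had the same trimmed mean of 100.001. The number of arrays, 3 in each group, limits the precision of each value.

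In most adult liver the hepatocytes rest outside the cell cycle. D-type cyclins with Cdk4, followed by E-type cyclins with Cdk2, carry a cell out of G1 by releasing E2F transcription factors, which turn on the genes of DNA replication. The genes of mitosis come on later. Their control involves the DREAM and B-Myb-MuvB complexes, and promoter elements called CCAAT boxes and cell cycle homology regions. In rodents, activators of PPAR alpha are known to drive hepatocytes into division in the first days of dosing. In a piece of whole liver, fewer dividing cells and less RNA per dividing cell cannot be told apart.

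Each comparison used limma on log2 of the signal plus an offset of 3.35, fitted to all 9 arrays, with Benjamini-Hochberg adjustment over 24546 probe sets and a threshold of 0.05. A probe set was tested if 3 or more of its 9 signals exceeded 15.6, which is the overall median. Of the 37 genes, 31 passed this filter. The 6 that did not were Tyms and Cdc6 among the replication genes, and Plk1, Bub1, Bub1b and Aurkb among the mitotic ones. Their signals have no test here. A log2 change below is the mean of the diet group minus that of the controls on this offset scale, with its standard error, and it understates the change of dim genes.

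With permethrin none of the 31 tested cell cycle genes passed the threshold. This count of 0 stands against 2.13% of the 12466 tested genes, 1.28% higher and 0.85% lower. At an unadjusted limma p under 0.05 there were 3 of the 31, or 9.68%, against 15.8% of all tested genes. Mcm2 was the 1 higher (6.89% of all tested genes), and Tk1 and Rrm1 were the 2 lower (8.9% of all tested genes).

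With clofibrate 1 of the 31 passed, or 3.23%, against 7.03% of all tested genes. This gene was Tk1, which was lower, as were 3.8% of all tested genes, while 0 were higher, against 3.22%. At the unadjusted p there were 4 of the 31, or 12.9%, against 21% of all tested genes. Cdk4 was the 1 higher (9.03% of all tested genes), and Tk1, Rrm2 and Ccna2 were the 3 lower (12% of all tested genes).

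Between the permethrin and clofibrate mice 0 of the 31 passed, against 0.738% of all tested genes, 0.473% higher and 0.265% lower. At the unadjusted p there were 4, or 12.9%, against 13% of all tested genes. Cdt1 and Ccna2 were the 2 higher with permethrin (6.59% of all tested genes), and Cdk4 and Rrm1 the 2 lower (6.44%). Counts this small do not set these genes apart from all tested genes in any of the 3 comparisons. Both diet comparisons share the same 3 control mice.

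**Figure D1:**
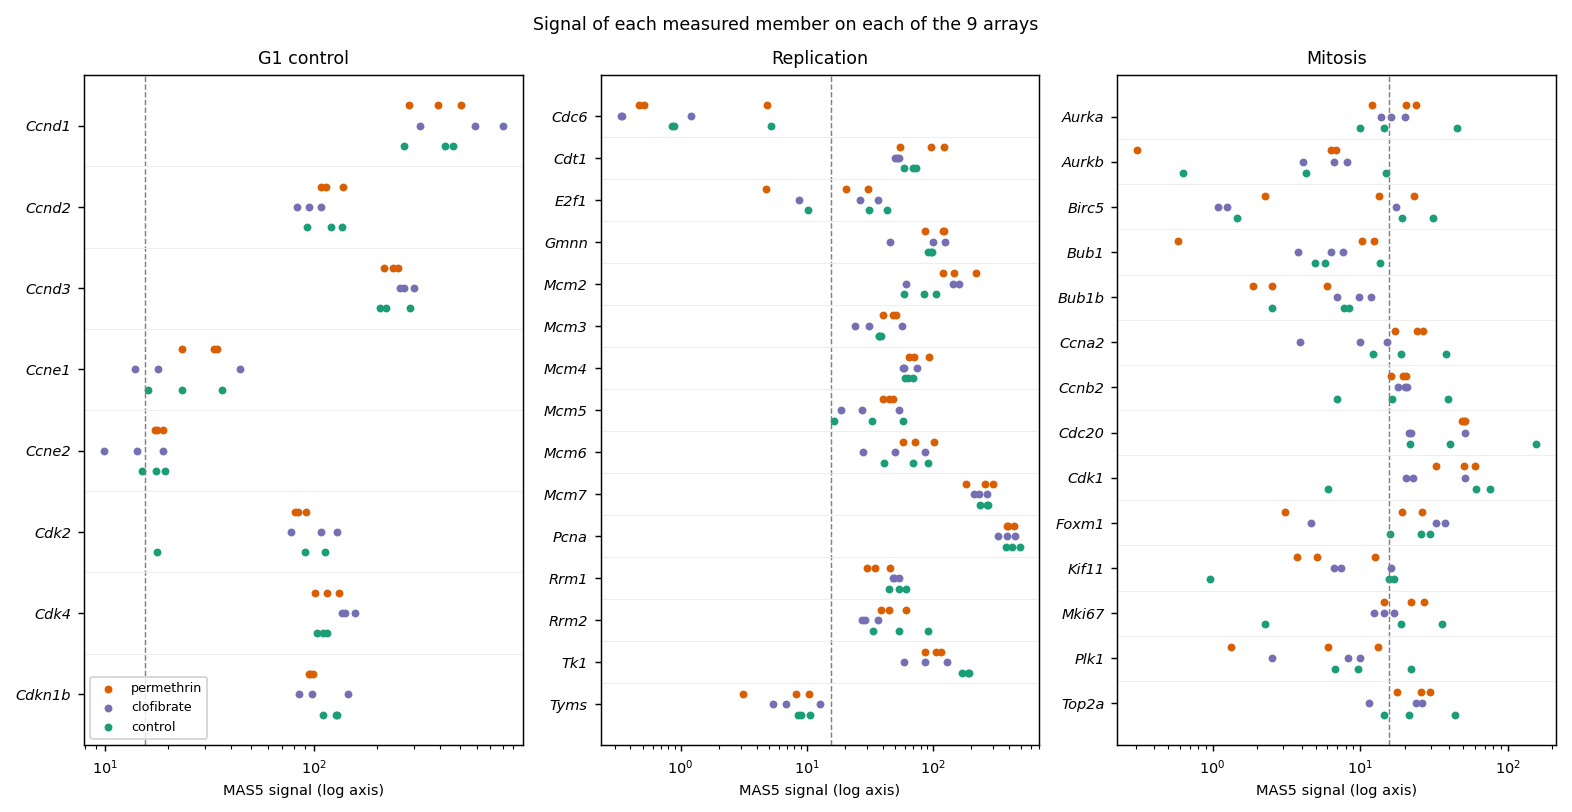
Signal of each of the 37 measured genes on a log axis, with 1 dot for each of the 9 arrays, in panels for G1 control, replication and mitosis; the dashed line marks the filter of 15.6. Many mitotic genes lie near the filter, and their control dots are spread widely, from 2.25 to 35.8 for Mki67.

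Tk1, thymidine kinase of the salvage pathway for DNA precursors, was the gene that fell with clofibrate. Its signal was 116, 105 and 87.4 in the permethrin mice, 86.9, 130.0 and 59.1 in the clofibrate mice and 169.5, 194 and 189 in the controls. All 6 mice on either chemical lay below all 3 controls. With clofibrate the log2 change was -1.04 ± 0.24 (limma adjusted p = 0.0255, 95% interval -1.56 to -0.53), a signal 2.06-fold lower. With permethrin it was -0.83 ± 0.24 (limma adjusted p = 0.126, 95% interval -1.34 to -0.31), which did not pass. Permethrin minus clofibrate gave 0.22 ± 0.24 (limma adjusted p = 0.770, 95% interval -0.30 to 0.73), which did not pass and does not show that the diets act alike. The clofibrate call ended when any 1 of the control mice was left out, with adjusted p between 0.0648 and 0.0851, without clofibrate mouse 1 (adjusted p = 0.0593) and without clofibrate mouse 3, where the log2 change was -0.77 (adjusted p = 0.0802). It also ended with no intensity trend in the variance model (adjusted p = 0.0779), with arrays centred on their median (adjusted p = 0.0718) and with arrays scaled to the hybridization controls, where the change was -0.71 (adjusted p = 0.0992). The log2 change was negative in each of these fits. Tk1 has 1 probe set, so no other probe set bears on it.

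The bases just before the annotated Tk1 gene are shown because it is the gene that carries the call. They are on GRCm38.p6, minus strand, chr11:117826088-117826264, 177 bases read 5′ to 3′ up to the first annotated base, from the RefSeq promoter table. None of the 3 motifs described further on was found in this window, so there are no capitals.
Tk1: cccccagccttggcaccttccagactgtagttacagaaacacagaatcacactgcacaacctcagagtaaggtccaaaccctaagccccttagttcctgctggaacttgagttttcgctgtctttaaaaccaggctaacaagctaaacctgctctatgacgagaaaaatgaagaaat

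Among the G1 genes no cyclin, kinase or inhibitor passed the threshold in any comparison. The medians of the 8 log2 changes were 0.05 with permethrin and 0.07 with clofibrate, beside -0.04 for all tested genes in each comparison. Ccnd1 encodes cyclin D1, the D-type cyclin most tied to hepatocyte entry into the cycle. Its signal was 284, 391 and 505 in the permethrin mice, 320.1, 801 and 587 in the clofibrate mice and 269.9, 462 and 423 in the controls. The groups overlapped, and 2 of the clofibrate mice lay above every control. The log2 changes were 0.03 ± 0.32 with permethrin (limma adjusted p = 0.979) and 0.50 ± 0.32 with clofibrate (limma adjusted p = 0.448, 95% interval -0.20 to 1.21).

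Ccnd3, another D-type cyclin, had signals of 251, 238 and 217 in the permethrin mice, 258, 299.9 and 271 in the clofibrate mice and 207, 222 and 289 in the controls. Both diets overlapped the controls, and the 3 permethrin mice lay below the 3 clofibrate mice (log2 difference -0.23 ± 0.15, limma adjusted p = 0.583). Ccnd2, the third D-type cyclin, had 108.2, 114 and 137 in the permethrin mice, 107.8, 94.0 and 82.5 in the clofibrate mice and 121, 136 and 92.0 in the controls. Here every permethrin mouse lay above every clofibrate mouse, if barely, and the difference did not pass (log2 difference 0.33 ± 0.18, limma adjusted p = 0.500). The E-type cyclin genes Ccne1 and Ccne2 lay near the filter, with signals of 13.9 to 44.1 and 9.82 to 19.2 over the 9 arrays, and overlapped in all comparisons.

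Cdk4, the kinase partner of the D-type cyclins, had signals of 132, 116 and 101 in the permethrin mice, 137, 157 and 140.1 in the clofibrate mice and 110.2, 115 and 104 in the controls. The 3 clofibrate mice lay above the other 6. The log2 change with clofibrate was 0.39 ± 0.14 (limma unadjusted p = 0.0187, adjusted p = 0.152, 95% interval 0.08 to 0.70), which did not pass. It did pass when arrays were scaled to the hybridization controls, which raised the median of all genes by 0.33. Its 3 probe sets gave changes of 0.30 to 0.39. With permethrin the change was 0.08 ± 0.14 (limma adjusted p = 0.866).

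Cdk2, the kinase of the E-type cyclins, had 91.6, 81.3 and 84.1 in the permethrin mice, 129, 77.7 and 108 in the clofibrate mice and 17.6, 90.2 and 112 in the controls. Control mouse 1 alone was far below the rest. The log2 changes were 0.54 ± 0.50 with permethrin (limma adjusted p = 0.686) and 0.80 ± 0.50 with clofibrate (limma adjusted p = 0.433), and without that control they were -0.23 with permethrin and 0.03 with clofibrate. Cdkn1b encodes p27, an inhibitor of these kinases. It had 94.3, 98.5 and 95.1 in the permethrin mice, 145, 97.9 and 84.2 in the clofibrate mice and 129, 127 and 109.7 in the controls. The permethrin mice lay below the controls, with a log2 change of -0.33 ± 0.19 (limma adjusted p = 0.481), while the clofibrate mice overlapped them (-0.19 ± 0.19, adjusted p = 0.655).

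The replication genes load and drive the replication machinery and supply its precursors. Over the 15 measured genes the median log2 change was -0.08 with permethrin and -0.18 with clofibrate, and over the 13 tested ones 0.18 with permethrin and -0.16 with clofibrate, beside -0.04 for all tested genes in each comparison. Of the 15, 14 had a negative change with clofibrate and Mcm2 a positive one, and of all 18193 genes 10111 had a negative one. Scaling to the hybridization controls raised the median of all genes by 0.33 with clofibrate and turned the replication median to 0.16, while its distance from the median of all genes was -0.13 on either scale. With permethrin the replication median was 0.07 on that scale and 0.02 with arrays centred on their median, beside 0.10 and 0.06 for all genes. Tk1 was the gene of this role past the threshold. The sum of the 15 signals was 1261 to 1669 in the permethrin mice, 1133 to 1539 in the clofibrate mice and 1273 to 1607 in the controls, so the groups overlapped.

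Pcna, the sliding clamp of the DNA polymerases, had signals of 441, 387 and 391 in the permethrin mice, 328, 447 and 387 in the clofibrate mice and 381, 427 and 487 in the controls. The 3 groups overlapped. The log2 change was -0.08 ± 0.14 with permethrin (95% interval -0.39 to 0.23) and -0.16 ± 0.14 with clofibrate (95% interval -0.47 to 0.15). Mcm7, a subunit of the MCM2-7 helicase, had 259, 301 and 185 in the permethrin mice, 214, 267 and 233 in the clofibrate mice and 236, 275 and 271 in the controls. Its log2 changes were -0.10 ± 0.18 with permethrin (limma adjusted p = 0.864) and -0.13 ± 0.18 with clofibrate (limma adjusted p = 0.749).

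Mcm2, another helicase subunit, had 148, 219 and 121 in the permethrin mice, 61.3, 143 and 161 in the clofibrate mice and 59.5, 85.1 and 106 in the controls, so the permethrin mice lay above all controls and the clofibrate mice spanned both. The log2 change with permethrin was 0.93 ± 0.34 (limma unadjusted p = 0.0204, adjusted p = 0.250, 95% interval 0.17 to 1.69), which did not pass. A second probe set of the gene gave 0.35, with groups that overlapped. Mcm3 also lay above the controls in every permethrin mouse, with 48.6, 51.3 and 40.2 in the permethrin mice, 24.0, 56.4 and 31.2 in the clofibrate mice and 37.2, 37.6 and 39.0 in the controls, by a log2 change of 0.27 ± 0.26 (limma adjusted p = 0.705). A second probe set of Mcm3 gave 1.33 with permethrin, with groups that overlapped. The subunits Mcm4, Mcm5 and Mcm6 overlapped in all comparisons, with log2 changes of 0.22, 0.44 and 0.22 with permethrin and -0.01, -0.05 and -0.34 with clofibrate. Their second probe sets, in the same order, gave 0.56, -0.18 and 0.43 with permethrin and 0.56, -0.03 and -0.21 with clofibrate.

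Rrm1 and Rrm2 encode the subunits of ribonucleotide reductase, which makes deoxyribonucleotides. Rrm1 had 34.5, 45.4 and 30.1 in the permethrin mice, 53.9, 49.1 and 48.3 in the clofibrate mice and 44.7, 53.8 and 61.2 in the controls. The log2 change with permethrin was -0.51 ± 0.19 (limma unadjusted p = 0.0230, adjusted p = 0.262), and the permethrin mice lay below the clofibrate mice. A second probe set of Rrm1 gave 0.10 against the controls and 0.04 for permethrin minus clofibrate, so the signs differed. Rrm2 had 60.8, 38.5 and 45.0 in the permethrin mice, 27.3, 36.5 and 29.1 in the clofibrate mice and 33.6, 92.4 and 54.2 in the controls. Control mouse 2 was the highest and 1 control overlapped the clofibrate mice, whose log2 change was -0.79 ± 0.31 (limma unadjusted p = 0.0262, adjusted p = 0.185).

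Cdt1 loads the MCM helicase onto origins and geminin, the product of Gmnn, holds it back. Cdt1 had 97.4, 123 and 54.9 in the permethrin mice, 51.6, 53.5 and 50.5 in the clofibrate mice and 73.7, 58.6 and 70.0 in the controls. The clofibrate mice lay within a narrow range below every control (log2 change -0.35 ± 0.24, limma adjusted p = 0.497) and below every permethrin mouse. Permethrin minus clofibrate was 0.71 ± 0.24 (limma unadjusted p = 0.0139, adjusted p = 0.267), and this passed when permethrin mouse 3 was left out. A second probe set of Cdt1 had groups that overlapped in all comparisons. It gave -0.52 with clofibrate, 0.44 for permethrin minus clofibrate and -0.09 with permethrin, where the first probe set gave 0.36. Gmnn and the transcription factor gene E2f1 overlapped in all comparisons, with log2 changes of 0.18 and -0.59 with permethrin and -0.19 and -0.20 with clofibrate. Tyms, thymidylate synthase, was at 3.12 to 12.7 over the 9 arrays and Cdc6, an MCM loader, at 0.334 to 5.25, both below the filter.

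**Figure D2:**
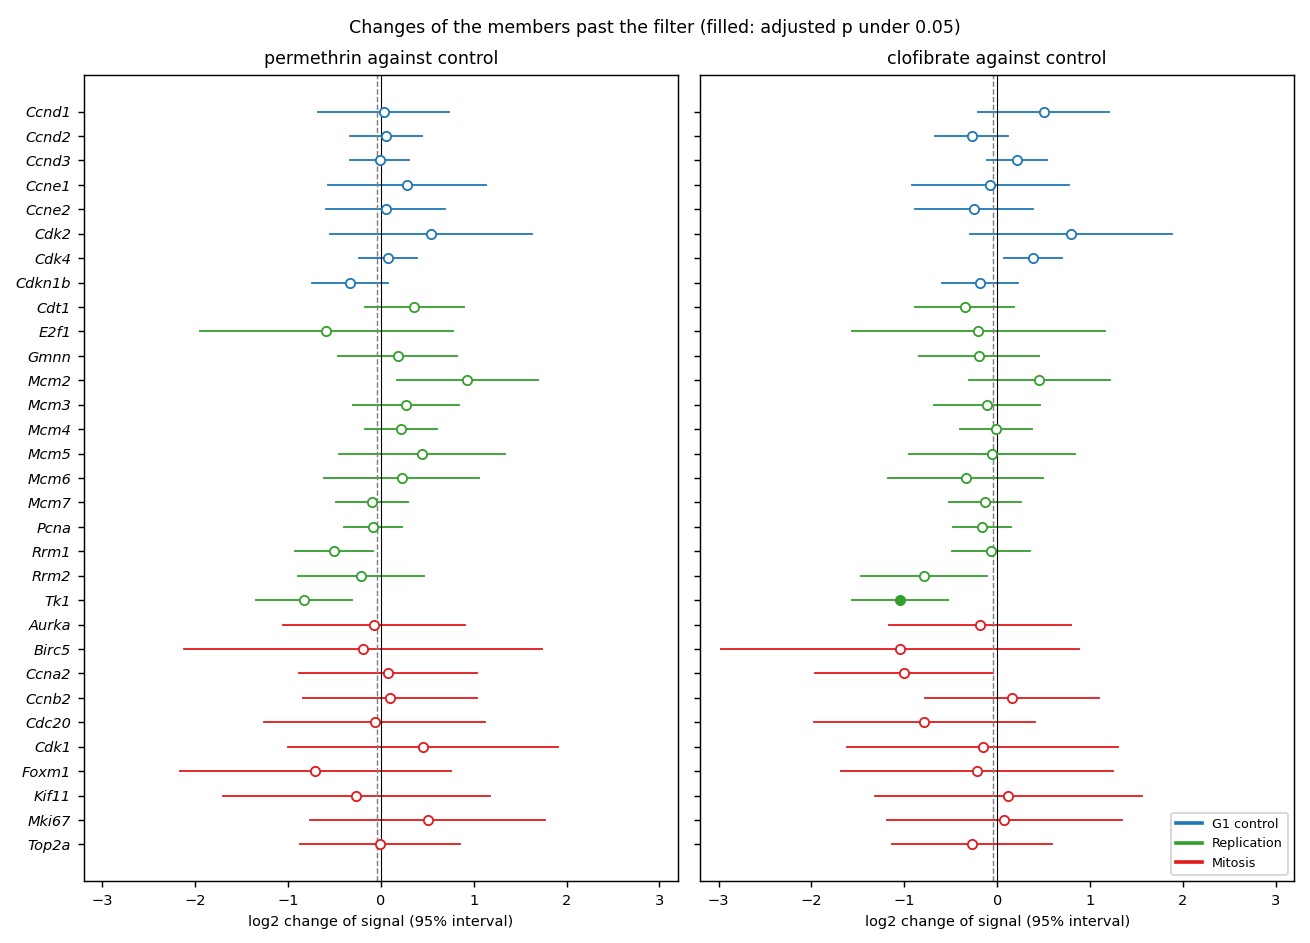
Log2 change against control of the 31 tested genes, with the 95% interval from limma, in 1 panel for permethrin and 1 for clofibrate; filled points passed the threshold and the dashed line is the median of all tested genes. The single filled point is Tk1 with clofibrate, at -1.04, and the intervals of the mitotic genes are the widest.

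The mitotic genes varied widely between the control mice. None of the 10 tested passed the threshold in any comparison, and the median log2 change of the 14 measured was -0.13 with permethrin and -0.20 with clofibrate, but 0.01 with permethrin and 0.13 with clofibrate when arrays were scaled to the hybridization controls. That scaling put the median of all genes at 0.10 with permethrin and 0.29 with clofibrate. The distance of the mitotic median from it was -0.09 with permethrin and -0.16 with clofibrate on either scale. The summed signal of the 14 genes was 283, 239.8 and 265 in the permethrin mice, 185, 264 and 195 in the clofibrate mice and 128, 547 and 282 in the controls. All 6 mice on either chemical lay between the lowest and the highest control. The median standard deviation of log2 signal within a group was 0.44 in the permethrin mice, 0.54 in the clofibrate mice and 1.00 in the controls for these 14 genes, and for all tested genes it was 0.21 in the permethrin mice, 0.20 in the clofibrate mice and 0.19 in the controls. The 14 include 4 genes that did not pass the filter, so the 2 sets differ in brightness.

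Control mouse 2 was the highest of the 9 arrays in 10 of the 14 mitotic genes, or 71.4%, while it was the highest in 11.5% of all tested genes. Control mouse 1 was the lowest of the 9 in 5 of the 14, or 35.7%, and in 8.97% of all tested genes. It was the lowest of the 3 controls in 11 of the 14, and also in 11 of the 15 replication genes (73.3%). In the wider list of cell cycle genes, described further on, the share was 36.1%. Control mouse 1 was the lowest of the 9 in 37.5% of the G1 genes and 13.3% of the replication genes. Control mouse 2 was the highest of the 9 in 26.7% of the replication genes, 27.1% of the wider list and 0 of the 8 G1 genes. Without control mouse 2 the median permethrin change of the 14 was 0.38, and over all arrays left out in turn it ran between -0.58 and 0.38, where -0.58 is the value without control mouse 1. Its sign therefore depends on which control mice are in the fit.

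**Figure D3:**
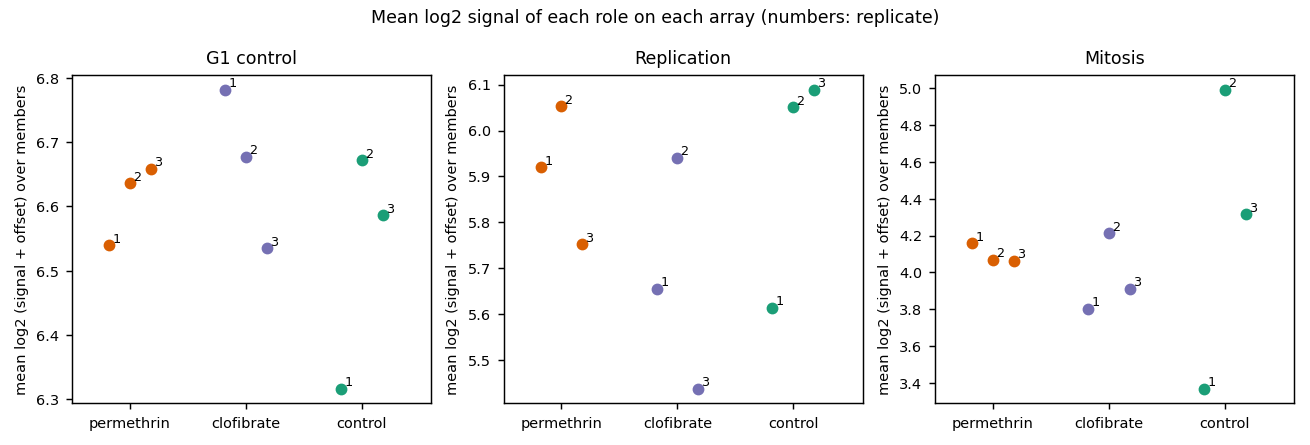
Mean log2 signal of the genes of each role on each of the 9 arrays, with permethrin, clofibrate and control mice from left to right. For mitosis the controls run between 3.37 and 4.99, and the permethrin mice, at 4.06 to 4.16, and the clofibrate mice, at 3.80 to 4.21, lie inside that range.

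Mki67 encodes Ki-67, the protein most used to stain dividing cells. Its signal was 22.1, 14.5 and 27.0 in the permethrin mice, 14.5, 17.0 and 12.4 in the clofibrate mice and 2.25, 35.8 and 18.8 in the controls. The lowest and the highest of the 9 arrays were both controls. The log2 change was 0.50 ± 0.58 with permethrin (limma adjusted p = 0.763, 95% interval -0.77 to 1.77) and 0.08 ± 0.58 with clofibrate (limma adjusted p = 0.962, 95% interval -1.19 to 1.35), and without control mouse 1 the permethrin value was -0.30. Both intervals reach past a 2-fold increase, so with 3 mice a group neither diet's change in Mki67 could be bounded to within that size.

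Cdk1, the kinase that drives entry into mitosis, had signals of 59.9, 32.7 and 50.2 in the permethrin mice, 22.9, 51.2 and 20.5 in the clofibrate mice and 6.01, 75.8 and 60.5 in the controls. Cdc20, which activates the anaphase-promoting complex, had 50.6, 48.8 and 51.3 in the permethrin mice, 21.5, 51.1 and 22.1 in the clofibrate mice and 21.9, 156 and 40.3 in the controls. In both genes control mouse 2 was the highest of all 9 arrays, and the permethrin mice lay among the controls. The log2 changes of Cdk1 were 0.46 ± 0.66 with permethrin and -0.16 ± 0.66 with clofibrate (limma adjusted p = 0.819 with permethrin and 0.932 with clofibrate). Those of Cdc20 were -0.06 ± 0.54 with permethrin and -0.79 ± 0.54 with clofibrate (limma adjusted p = 0.973 with permethrin and 0.491 with clofibrate).

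Ccna2 encodes cyclin A2, used in S phase and early mitosis. It had 17.1, 26.8 and 24.2 in the permethrin mice, 3.91, 15.1 and 9.98 in the clofibrate mice and 12.2, 38.4 and 19.0 in the controls. The clofibrate mice lay below every permethrin mouse and overlapped the controls. The log2 change with clofibrate was -1.01 ± 0.44 (limma unadjusted p = 0.0417, adjusted p = 0.238), while a second probe set of the gene gave 0.90. Birc5, or survivin, a part of the chromosomal passenger complex, had 23.3, 2.27 and 13.5 in the permethrin mice, 1.09, 17.5 and 1.26 in the clofibrate mice and 1.46, 31.2 and 19.3 in the controls. In each group 1 mouse or more was far below the filter, and the change with clofibrate was -1.05 ± 0.88 (limma adjusted p = 0.587).

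Foxm1, a transcription factor of mitotic genes, had 19.1, 26.4 and 3.10 in the permethrin mice, 37.6, 4.65 and 32.8 in the clofibrate mice and 25.8, 15.9 and 29.9 in the controls. Permethrin mouse 3 and clofibrate mouse 2 were the low ones. The log2 change was -0.71 ± 0.67 with permethrin (limma adjusted p = 0.698) and -0.22 ± 0.67 with clofibrate (limma adjusted p = 0.903). A second probe set gave 0.96 with permethrin. With clofibrate it gave 1.28 ± 0.49 (limma unadjusted p = 0.0240, adjusted p = 0.175), which did not pass. On that probe set the clofibrate mice, at 15.0 to 18.7, lay above the controls, at 1.73 to 8.74 and so below the filter. The topoisomerase gene Top2a, the cyclin gene Ccnb2, the kinase gene Aurka and the motor gene Kif11 overlapped in all comparisons, with log2 changes between -0.26 and 0.10 for permethrin and between -0.27 and 0.16 for clofibrate. Of the 4 dim genes, Plk1 ran over 1.33 to 22.1, Bub1 over 0.579 to 13.7, Bub1b over 1.86 to 11.7 and Aurkb over 0.308 to 15.1.

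How far a change can be bounded differed by role. With permethrin the 95% interval lay within 2-fold in either direction, on the offset scale, for 6 of 8 G1 genes, 8 of 13 replication genes and 1 of 10 mitotic genes, Top2a. With clofibrate it did so for 6 of 8 G1 genes, 8 of 13 replication genes and 0 of 10 mitotic genes. The interval reached, at the median, to either side of the change by 0.52 for the G1 genes, 0.57 for the replication genes and 1.23 for the mitotic genes on the log2 scale. So a 2-fold change on the offset scale was outside the interval for 15 of the 31 tested genes with permethrin and 14 with clofibrate, and could not be bounded for most mitotic genes. For dim genes, Top2a among them, 2-fold on that scale is more than 2-fold in signal, so these counts do not bound the signal itself to 2-fold.

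Counted by mice that do not overlap, 4 of the 31 genes (12.9%) separated the permethrin mice from the controls, against 22.7% of all tested genes. Mcm2 and Mcm3 lay above (9.53% of all tested genes), and Tk1 and Cdkn1b below (13.2%). With clofibrate 3 of the 31 (9.68%) separated, against 27.2% of all tested genes. Cdk4 lay above (11.6% of all tested genes), and Tk1 and Cdt1 below (15.6%). Between the permethrin and clofibrate mice 7 of the 31 (22.6%) separated, against 18.1% of all tested genes. Higher with permethrin were 4, Ccnd2, Cdt1, Rrm2 and Ccna2 (9.08% of all tested genes), and lower were 3, Ccnd3, Cdk4 and Rrm1 (9.02%). Several probe sets of a gene did not always give the same sign. Of the 16 genes with several tested probe sets, the signs differed in 9 with permethrin, in 6 with clofibrate and in 6 between the permethrin and clofibrate mice.

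Promoters were searched on both strands in the 250 bases before the annotated start for CCAAT, for the cell cycle homology region as TTTGAA or TTCGAA, and for E2F as TTCCCGC, its variant TTCGCGC, or the related forms TTGCCGC and likewise TTGGCGC, with overlap between motifs allowed. The RefSeq table on GRCm38.p6 held 29 of the 37 genes. CCAAT was found for 10 of 11 mitotic genes (90.9%), 8 of 13 replication genes (61.5%) and 3 of 5 G1 genes (60.0%), and for 37.5% of the 27025 genes of the table. A cell cycle homology region was found for 7 of 11 mitotic genes (63.6%), 2 of 13 replication genes (15.4%) and 0 of 5 G1 genes, and for 19.6% of all genes. E2F was found for 2 of 11 mitotic genes (18.2%), 6 of 13 replication genes (46.2%) and 1 of 5 G1 genes (20.0%), and for 9.01% of all genes. A gene counts where any of its windows holds the motif, and a match is a description of the letters and not a bound site.

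The windows of Mki67, Cdk1 and Cdc20 are shown because these mitotic genes ran together over the control mice, lowest of the 3 in control mouse 1 and highest in control mouse 2. All are on GRCm38.p6, minus strand, read 5′ to 3′, with motif matches in capitals. Only bases outside the annotated gene are printed, so the Mki67 window stops after 179 bases, and the E2F match counted for Mki67 lies in the remainder of its 250 bases. Mki67 is at chr7:135716451-135716629 with 3 CCAAT and 2 homology region matches. Cdk1 is at chr10:69352913-69353162 with 3 CCAAT, 2 homology region and 2 E2F matches, and Cdc20 is at chr4:118437344-118437593 with 2 CCAAT matches and 1 homology region match.
Mki67: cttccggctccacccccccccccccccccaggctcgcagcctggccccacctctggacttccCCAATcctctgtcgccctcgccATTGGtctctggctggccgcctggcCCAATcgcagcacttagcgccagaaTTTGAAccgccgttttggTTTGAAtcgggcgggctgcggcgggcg
Cdk1: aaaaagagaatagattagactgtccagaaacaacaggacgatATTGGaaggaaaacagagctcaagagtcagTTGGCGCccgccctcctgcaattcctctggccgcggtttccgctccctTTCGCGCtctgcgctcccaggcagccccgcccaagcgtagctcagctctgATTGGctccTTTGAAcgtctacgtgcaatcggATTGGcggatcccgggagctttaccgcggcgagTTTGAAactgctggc
Cdc20: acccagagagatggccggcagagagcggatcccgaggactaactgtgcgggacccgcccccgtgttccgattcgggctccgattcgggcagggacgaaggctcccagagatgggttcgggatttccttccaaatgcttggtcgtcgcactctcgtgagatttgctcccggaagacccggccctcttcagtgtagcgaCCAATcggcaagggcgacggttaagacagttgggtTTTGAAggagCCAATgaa

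A wider list of 136 cell cycle genes gave 133 measured genes, of which 105 passed the filter and 28 did not. With permethrin 0 of the 105 passed the threshold and 15 (14.3%) had an unadjusted limma p under 0.05, against 15.8% of all tested genes. With clofibrate 5 of the 105 passed (4.76%), 2 higher and 3 lower, and 16 (15.2%) had an unadjusted p under 0.05, against 21% of all tested genes. Between the permethrin and clofibrate mice 0 passed, with 11 (10.5%) at an unadjusted p under 0.05, against 13% of all tested genes. Of all tested genes 2.13% passed with permethrin, 7.03% with clofibrate and 0.738% between the permethrin and clofibrate mice. The counts of the wider list are too small to set it apart from these shares. The medians of the tested log2 changes were -0.03 with permethrin and -0.08 with clofibrate. The clofibrate count of 5 was 3 without control mouse 1, and 2 without control mouse 3, clofibrate mouse 2 or clofibrate mouse 3.

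Spc25, a subunit of the NDC80 kinetochore complex, had signals of 119.8, 126 and 164 in the permethrin mice, 133, 235 and 198 in the clofibrate mice and 50.8, 95.05 and 82.3 in the controls. Both diets lay above every control. With clofibrate it rose 2.43-fold (log2 change 1.28 ± 0.26, limma adjusted p = 0.0138), and with permethrin the change was 0.85 ± 0.26 (adjusted p = 0.148). Its partner Spc24, chosen after its values were seen, had a log2 change of -0.70 ± 0.24 with clofibrate (limma adjusted p = 0.130), and the partners Ndc80 and Nuf2 did not pass the filter. Tfdp1, the dimer partner of E2F factors, had 182, 191 and 171 in the permethrin mice, 181, 183 and 201 in the clofibrate mice and 123, 139.8 and 119 in the controls. Again both diets lay above every control. The log2 change was 0.55 ± 0.13 with clofibrate (limma adjusted p = 0.0262) and 0.50 ± 0.13 with permethrin (adjusted p = 0.0807).

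Among the genes that fell with clofibrate, Ccnh encodes cyclin H, the partner of the CDK-activating kinase Cdk7. It had 407, 470.0 and 373 in the permethrin mice, 310.4, 273 and 315 in the clofibrate mice and 517, 522 and 482 in the controls. Every clofibrate mouse lay below every other mouse, and the log2 change was -0.75 ± 0.12 (limma adjusted p = 0.00429). With permethrin it was -0.29 ± 0.12 (adjusted p = 0.325), and permethrin minus clofibrate was 0.47 ± 0.12 (adjusted p = 0.137). Prim1, the DNA primase subunit, had 54.7, 48.4 and 41.8 in the permethrin mice, 34.1, 27.7 and 38.1 in the clofibrate mice and 53.9, 81.6 and 65.8 in the controls. Its clofibrate mice were again the lowest 3, at a log2 change of -0.93 ± 0.20 (limma adjusted p = 0.0198), against -0.44 ± 0.20 with permethrin (adjusted p = 0.369).

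Pbk, a mitotic protein kinase, had 29.5, 23.0 and 27.0 in the permethrin mice, 13.3, 21.1 and 12.1 in the clofibrate mice and 33.2, 45.5 and 28.2 in the controls. The 3 clofibrate mice lay below all others, with a log2 change of -1.05 ± 0.26 (limma adjusted p = 0.0405), and the change with permethrin was -0.37 ± 0.26 (adjusted p = 0.590). Over the alternatives tried, the clofibrate call held in 22 of 23 for Ccnh, 20 for Spc25, 19 for Prim1 and 16 for Tfdp1, and in 8 of 22 for Pbk, with the same sign in all of them. The second probe set alternative did not touch the wider list, so for these genes it repeats the main fit and its call was fixed. With the replicate number as a block the count of the wider list with clofibrate was 3, and the calls of Tfdp1 (adjusted p = 0.0563) and Pbk (adjusted p = 0.058) were lost. Among genes past the filter but not the threshold, the largest changes with permethrin were those of Troap (-0.98 ± 0.60, limma adjusted p = 0.519), E2f8 (0.91 ± 0.31, adjusted p = 0.205) and Timeless (0.91 ± 0.34, adjusted p = 0.261). With clofibrate they were, beside Spc25, those of E2f5 (-1.69 ± 0.62, adjusted p = 0.157) and Smc4 (-1.54 ± 0.53, adjusted p = 0.131).

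**Figure D4:**
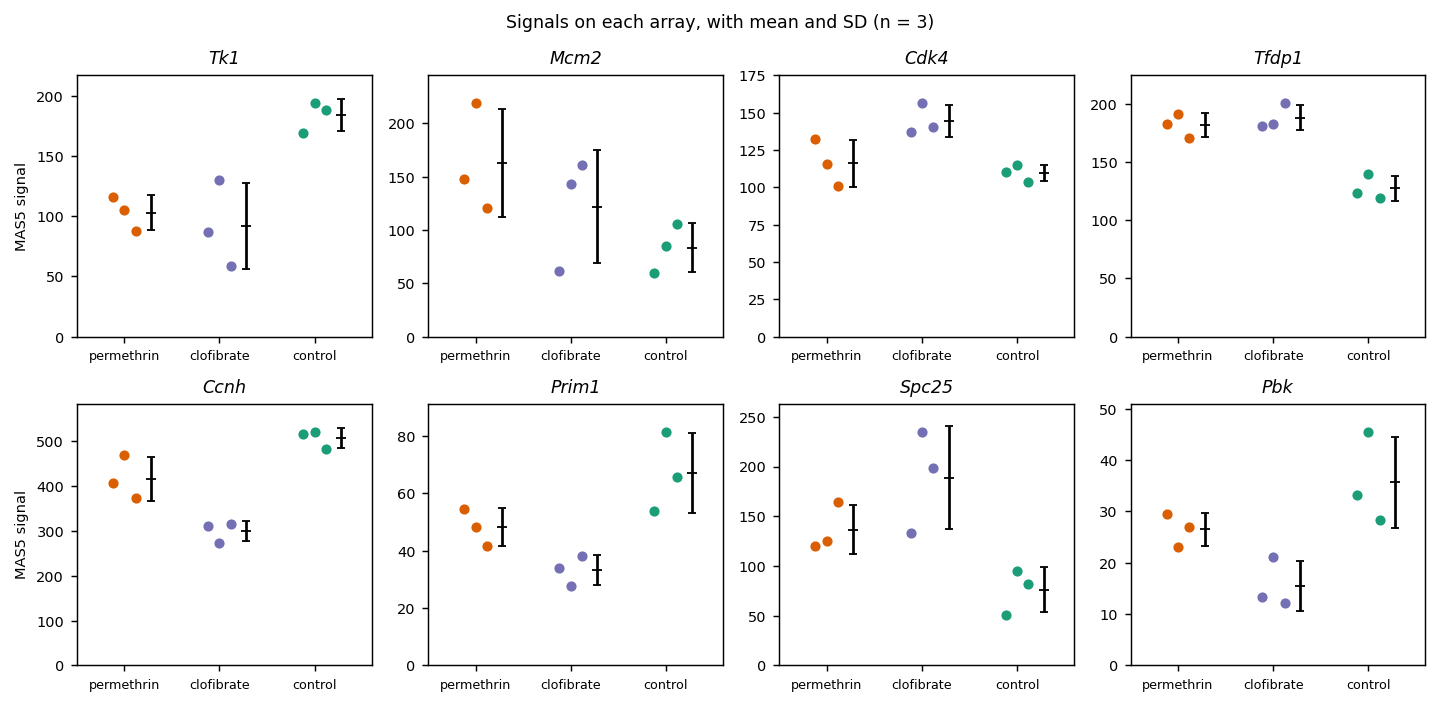
Signal per array of Tk1, Mcm2, Cdk4, Tfdp1, Ccnh, Prim1, Spc25 and Pbk, with permethrin, clofibrate and control mice from left to right in each panel, and the group mean with its standard deviation (n = 3). Tk1 is below the controls in both diets, Spc25 and Tfdp1 above them, and Ccnh, Prim1 and Pbk lowest with clofibrate.

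Markers of the liver's cell types were measured beside these genes. The 6 hepatocyte markers had summed signals of 43444 to 48098 in the permethrin mice, 36078 to 43832 in the clofibrate mice and 50809 to 55982 in the controls. Alb, Apoa1 and Fgb, 3 of the 6 (50%), fell with clofibrate on the deposited scaling, against 3.8% of all tested genes. Of 48 markers of 9 other cell types 39 were tested and 1 (2.56%) passed in each diet comparison. Of all tested genes 2.13% passed with permethrin and 7.03% with clofibrate. The marker was Elane, a neutrophil protease, which was higher in both. Its signals were 27.6, 26.7 and 28.2 in the permethrin mice, 28.5, 22.5 and 18.1 in the clofibrate mice and 9.94, 10.1 and 4.01 in the controls (limma adjusted p = 0.0400 with permethrin and 0.0420 with clofibrate). Every control signal of Elane lay below the filter, and all of its arrays above the filter were from treated mice. Its change therefore rests on dim control signals. No other neutrophil marker passed. Of the 7 measured, 5 had a negative change with permethrin and 3 with clofibrate, and their summed signal was 155 to 178 in the permethrin mice, 135 to 279.6 in the clofibrate mice and 115 to 247 in the controls. The summed signal of 6 sinusoidal endothelium markers was 1587 to 1789 in the permethrin mice, 1335 to 1438 in the clofibrate mice and 1729 to 1949 in the controls. In either diet comparison 0 of the 6 were past the threshold, against the same shares of all tested genes. The 6 stellate cell markers summed to 1971 to 2115 in the permethrin mice, 1693 to 2337 in the clofibrate mice and 2097 to 3268 in the controls. The 8 Kupffer cell and macrophage markers summed to 2453 to 5158 with permethrin, 2689 to 3815 with clofibrate and 2908 to 3387 in controls. The 6 T and NK cell markers, 3 of them not past the filter, had 68.3 to 102, 95.8 to 148 and 50.7 to 91.4 in the same order. The 3 megakaryocyte markers had 93.1 to 170, 112 to 117 and 87.7 to 108. Cholangiocyte, B cell and erythroid precursor sums overlapped between each diet and the controls. No marker was at 0, and the part of cell composition in the changes of Tk1 and the wider list was not tested.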

How the data were processed

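Per the labels, biotin-labelled cRNA made from total liver RNA was hybridised to Affymetrix arrays. Per the submitters' processing notes, the authors ran MAS5, whose version and settings the sources used here do not give. The deposited file holds a linear signal, an intensity, for each of 45101 rows and 9 arrays. The description of the treated samples names rats, whereas organism, source and strain name mouse. Of the rows, 64 were array controls, 34945 had 1 symbol, 932 had several and 9160 had none here. Symbols of 34741 were updated through Entrez identifiers. The trimmed mean (2% at each end) was 100.001 on every array, and the median signal was 13.4 to 17.9. No 2 arrays shared more than 1 identical signal.

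Computed from these values were log2(signal + 3.35), where 3.35 is the 20th percentile of all signals, and two-sided moderated tests with limma 3.58.1 in R 4.3.3 (data.table, version 1.17.8), 1 mean per group and an intensity trend. The test was run on simulated data with independent normal noise and changes added to the clofibrate group alone, which leaves array-wide differences unchecked. Replicate numbers were not used to pair mice: the correlation of same-numbered arrays' deviations from their group means lay between -0.109 and 0.113. Values after ± are standard errors of log2 changes or standard deviations of signals, and n = 3.

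The genes and lists were chosen with earlier results of these data known. Signals on every array are given for genes past the threshold and, in each role, for the 2 with the largest change in each diet comparison and the 2 with the highest mean signal. Some others were chosen after their values were seen. Of the wider list, the genes past the threshold and the 3 largest changes were named. Alternatives changed the offset, the scaling, the filter, the variance model, array weights, the arrays fitted, the probe set, a replicate block and single arrays. Cyclic loess was added after seeing the data. Batch labels were not used here.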

Additional observations from a re-analysis of the deposited data

How the results depend on the processing

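The counts of the 37 cell cycle genes stayed at 0 or 1 under the alternatives tried, but with scaling to hybridization controls the gene called with clofibrate was Cdk4 and not Tk1. With clofibrate the count was 0, against 1, with arrays centred on the median and with no intensity trend, and 0 to 1 with arrays left out in turn. With permethrin it was 1 when only the 2 groups compared were fitted, where Tk1 had -0.83 (limma adjusted p = 0.0338), and 0 to 1 with arrays left out in turn. The permethrin call of Tk1 was also made without clofibrate replicate 2 (adjusted p = 0.0485). Between permethrin and clofibrate the count was 0 to 1. The log2 change of Tk1 with clofibrate was -0.96 with arrays centred on the median, -0.71 with scaling to hybridization controls and -1.04 with no intensity trend, and ran between -1.32 and -0.77 with arrays left out. Its permethrin change ran between -0.91 and -0.72. Tk1 passed the threshold with clofibrate in 15 of 23 alternatives, with limma adjusted p between 0.0044 and 0.0992. Of these 15, the second probe set alternative repeats the main fit, since Tk1 has 1 probe set.

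The wider list's count with clofibrate, 5, was 3 with arrays centred on the median, with no intensity trend and with the replicate block, 8 with scaling to hybridization controls, where Spc25 and Tfdp1 were the genes of the 5 still called, 8 with array weights, and 2 to 6 with arrays left out, with 2 reached without control replicate 3, clofibrate replicate 2 or clofibrate replicate 3. With permethrin it was 0 to 1. The replicate block changed no call of the 37 genes, and replicate numbers showed no pairing.

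Over all tested genes the permethrin count of 266 became 143 with arrays centred on the median, 165 with scaling to hybridization controls and 80 with no intensity trend, and ran between 108, without control replicate 1, and 318 with arrays left out. The clofibrate count of 876 became 487 with median centring, 397 with no intensity trend and 1496 with array weights, and ran between 430, without clofibrate replicate 3, and 889. Between permethrin and clofibrate 92 became 33 with median centring, 43 with hybridization controls, 10 with no intensity trend, 226 with array weights and 48 with only the 2 groups compared, and ran between 17, without clofibrate replicate 3, and 119. Of the clofibrate calls 402 of 876 were higher in the deposited scaling, 1034 of 1123 with hybridization controls and 305 of 487 with median centring. Of the permethrin calls 160 of 266 were higher, against 143 of 165 with hybridization controls and 117 of 143 with median centring. Between the diets 59 of 92 were higher, against 9 of 43 with hybridization controls and 26 of 33 with median centring.

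The G1 median with clofibrate was 0.40 with hybridization controls, where the median of all genes was 0.29, and -0.22 with second probe sets. The replication median was 0.16 with hybridization controls. The G1 median of permethrin minus clofibrate was -0.37 with hybridization controls, where the median of all genes was -0.19. It was 0.035 with second probe sets and between -0.23 and -0.010 with arrays left out. The mitosis median with permethrin ran between -0.58 and 0.38. With second probe sets the sign turned for Foxm1 with permethrin (0.96), and for Foxm1 (1.28) and Ccna2 (0.90) with clofibrate. Without control replicate 1 it turned for Cdk2 (-0.23) and Mki67 (-0.30) with permethrin. With arrays left out in turn Cdk2 ran between -0.23 and 1.00 and Mki67 between -0.30 and 1.11. The cause was not tested. Of the mitotic genes, 4 did not pass the filter and have no test.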
